A study of Homo sapiens with 6 samples.

Results

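The genes described here are 6 SUMO proteases, SENP1, SENP2, SENP3, SENP5, SENP6 and SENP7, and 2 genes for the SUMO proteins themselves, SUMO2 and SUMO3. They were picked by name from the deposited table, which holds 28395 gene rows; all 8 were found and all 8 were among the 13373 genes with enough counts to be tested. The set was built around SENP5, which was chosen because it was among the 30 genes called as different between the groups; the other members were added as its relatives and protein substrates. The measurements came from TC28a2 cells, an immortalised human chondrocyte line, transfected with an FAP overexpression vector (3 libraries) or with a control vector (3 libraries), with RNA taken 48 hours later. They were sequenced by DRUG-seq, a multiplexed form of RNA sequencing. FAP, fibroblast activation protein, is a cell-surface protease of activated fibroblasts. No source used here gives the promoter of the vector or the share of cells that took it up, so each value is a mean over transfected and untransfected cells of a culture. The labels do not tie the replicates to separate cultures, and p-values therefore cover the spread among these 6 libraries, which could be technical.

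SUMO proteins are small relatives of ubiquitin that are joined to lysines of other proteins by a cascade of an activating enzyme, a conjugating enzyme and ligases. The SENP proteases trim newly made SUMO to its mature form and cut it off its targets, so that the mark is reversible. SENP3 and SENP5 form a branch of the family found largely in the nucleolus, where ribosomes are assembled, and prefer SUMO2 and SUMO3 as substrates; SENP5 has also been linked to the mitochondrial fission protein DNM1L. SENP1 and SENP2 are found at the nuclear envelope and pore, and SENP6 and SENP7 shorten chains of SUMO2 and SUMO3.

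SENP5 (Entrez 205564; GRCh38.p14 chromosome 3, 196867920 to 196934714) is the gene the results turn on, and SENP3 (Entrez 26168; chromosome 17, 7561919 to 7571969) is its nearest relative. Their promoter windows, running from 250 bases before to 50 bases after the annotated gene start, are shown because SENP5 was called in the comparison below and SENP3 was not. Both are on the plus strand, from RefSeq on GRCh38.p14, at chr3:196867670-196867969 and chr17:7561669-7561968. Capitals mark matches to GGGCGG, the GC box bound by factors of the SP family.
SENP5: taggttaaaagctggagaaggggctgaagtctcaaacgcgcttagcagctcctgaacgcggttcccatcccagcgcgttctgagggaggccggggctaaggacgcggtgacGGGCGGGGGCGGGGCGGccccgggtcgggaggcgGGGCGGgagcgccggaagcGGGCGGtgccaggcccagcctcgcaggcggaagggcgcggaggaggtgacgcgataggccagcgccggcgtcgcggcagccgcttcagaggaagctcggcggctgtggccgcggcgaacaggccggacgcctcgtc
SENP3: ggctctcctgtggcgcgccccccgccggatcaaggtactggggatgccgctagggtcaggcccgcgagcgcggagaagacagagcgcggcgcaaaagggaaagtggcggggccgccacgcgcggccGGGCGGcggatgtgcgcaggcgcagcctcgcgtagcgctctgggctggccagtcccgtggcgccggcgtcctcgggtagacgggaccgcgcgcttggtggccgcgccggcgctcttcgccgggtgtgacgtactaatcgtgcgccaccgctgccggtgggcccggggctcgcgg
Both windows were rich in G and C, at 73% of bases for SENP5 and 75.7% for SENP3, against a median of 58.7% over all promoters of this table. The SENP5 window held 5 matches to GGGCGG on the plus strand, at positions 112, 118, 123, 146 and 165 from its first base, the matches at 118 and 123 sharing a base; the SENP3 window held 1, at position 127. Searched on both strands, GGGCGG was present in 45% of 35116 promoter windows of this length. Neither window held CACCTG, a site of the E-box type bound by ZEB1, the transcription factor in the title of the series, CACGTG, the E-box of USF factors, CCAAT or TATAAA; these letters were present in 20.6%, 7.26%, 34.6% and 11.5% of all windows. Windows were found for 6 of the 8 genes, and those of SUMO3 and SUMO2 held 1 CACGTG and 1 CCAAT. These 6 genes had 8 windows, as SENP1 had more than 1, and GGGCGG was present in 6 of the 8. The SENP6 window, from a gene that was not called, held GGGCGG at positions 15, 89, 184, 198, 204 and 215. It was 77% G and C. A match is a run of letters and shows no binding.

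The libraries held between 5736056 and 13839743 gene counts. FAP was at 223, 225 and 351 CPM in the FAP libraries and at 0, 1.20 and 0.396 CPM in the controls, where CPM are gene counts per 1000000 counts scaled by TMM, a correction for library composition. The 6 labels therefore matched the expression of the transfected gene. FAP replicate 3 stood apart from its group, its chi-square per degree of freedom over genes being 16.2 and 15.5 against FAP replicates 1 and 2, compared with 5.74 for those against each other and 5.21 to 6.78 among controls; values without it are given for several genes below. Of 14 chondrocyte marker genes, 13 were below 1 CPM on average over the 6 libraries, ACAN and COL2A1 among them. ACAN averaged 0.54 CPM in FAP libraries and 1.20 CPM in controls. SOX9 was at 37.4 CPM in FAP libraries and 28.8 CPM in controls. All 10 fibroblast and mesenchymal markers were above 1 CPM on average over the 6 libraries, though DCN averaged 0.80 CPM in controls. KRT8 and KRT18, keratins of simple epithelia, stood at 495 and 997 CPM in FAP libraries and at 440 and 939 CPM in controls, whereas EPCAM and CDH1, which define epithelial cells, were below 1 CPM. Summed over the 8 epithelial markers the level was 1410 to 1540 CPM in FAP libraries and 1320 to 1510 CPM in controls. The markers of endothelial cells summed to 1.84 to 2.67 CPM in FAP libraries and 0.913 to 1.09 CPM in controls, and those of blood cells to 15.8 to 18.3 CPM in FAP libraries and 16.1 to 17.9 CPM in controls. Of the 5 endothelial markers only PECAM1 averaged 1 CPM or more over the 6 libraries. It was at 1.70 CPM in FAP libraries and 0.44 CPM in controls (adjusted p = 0.293, edgeR). The part of these levels in the results below was not tested.

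SENP5 was lower in the FAP libraries than in the controls, while the groups overlapped in the other 5 proteases and in both SUMO genes, none of which was called. SENP5 measured 88.3, 97.2 and 87.8 CPM in FAP replicates 1, 2 and 3, against 118, 138 and 142 CPM in control replicates 1, 2 and 3. All FAP libraries lay below the controls, and control replicate 1 was the control nearest to the FAP group. The means were 91.1 ± 5.31 CPM in FAP libraries and 132 ± 12.7 CPM in controls (SD, n = 3 each), from raw counts of 553, 1377 and 1184 in FAP libraries and 645, 1260 and 1788 in controls. The fitted log2 fold change was -0.54 (SE 0.10), a level 0.687 times that of controls. These are the values that chose the gene, so they are given as a description; in edgeR's quasi-likelihood fit over all 13373 genes its adjusted p was 0.03415, and 0.224% of all genes were called, 0.127% as lower. The call depended on single libraries, with adjusted p-values up to 0.3082 when control replicate 2 was left out. FAP libraries lay below all controls in 7.99% of all genes tested. In bulk RNA, fewer cells with the transcript and less transcript per cell cannot be told apart.

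**Figure D1:**
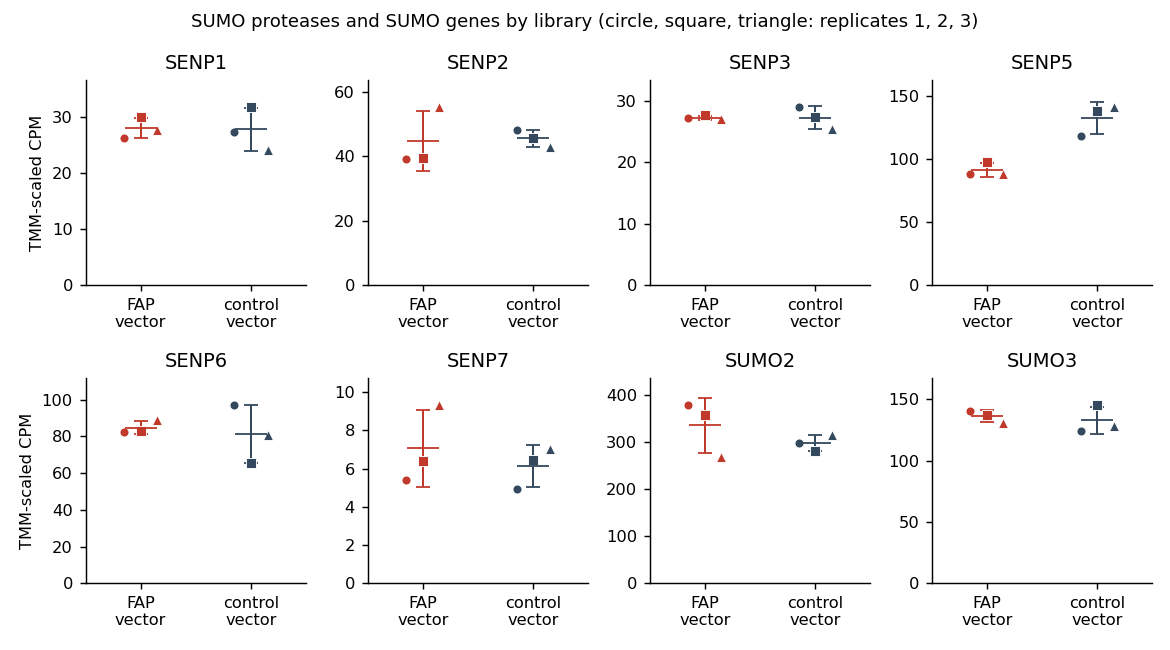
Level of each gene in each library, in TMM-scaled CPM, with FAP vector libraries on the left of each panel and control vector libraries on the right; symbols mark replicates 1, 2 and 3, the horizontal line the mean and the bar 1 SD. In the SENP5 panel the FAP libraries (87.8 to 97.2 CPM) lie below the controls (118 to 142 CPM), and in the other 7 panels the groups overlap.

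SENP3, the nearest relative of SENP5 and a regulator of ribosome assembly, averaged 27.2 ± 0.323 CPM in FAP libraries and 27.2 ± 1.86 CPM in controls (SD, n = 3 each). The libraries measured 27.1, 27.6 and 27.0 CPM in FAP libraries and 29.04, 27.3 and 25.3 CPM in controls. The FAP values fell inside the range of the controls, with a log2 fold change of 0.01 (SE 0.13) and a 95% interval of -0.25 to 0.27. The ratio of SENP5 to SENP3 counts, which needs no scaling between libraries, was 3.25, 3.52 and 3.25 in FAP libraries and 4.06, 5.04 and 5.59 in controls. All 3 FAP ratios were lower than the lowest control ratio. The ratio reuses the SENP5 counts that chose the gene, so this separation is no separate result. No test of the difference between the 2 genes is given, since SENP5 was picked for its value in this contrast.

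SENP1 and SENP2, the proteases of the nuclear envelope, also showed overlapping groups. SENP1 measured 26.3, 30.0 and 27.8 CPM in FAP libraries and 27.4, 31.9 and 24.1 CPM in controls, with a log2 fold change of 0.02 (SE 0.13, 95% interval -0.26 to 0.30). SENP2 measured 39.1, 39.5 and 55.4 CPM in FAP libraries and 48.2, 45.6 and 43.0 CPM in controls. Its log2 fold change of -0.02 (SE 0.13, 95% interval -0.29 to 0.26) averaged over 2 FAP libraries that lay below all controls and FAP replicate 3, which lay above them. Without FAP replicate 3 the SENP2 log2 fold change was -0.21 (adjusted p = 0.508, edgeR).

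SENP6 and SENP7, the proteases of SUMO chains, differed widely in level. SENP6 measured 82.2, 83.1 and 88.8 CPM in FAP libraries and 97.2, 65.7 and 80.6 CPM in controls. Its FAP libraries lay close together within the wider range of the controls (log2 fold change 0.07, SE 0.12, 95% interval -0.18 to 0.32). SENP7 was the lowest member, at 5.43, 6.42 and 9.34 CPM in FAP libraries and 4.93, 6.45 and 7.04 CPM in controls. The SENP7 estimate was the least precise of the set (log2 fold change 0.20, SE 0.25, 95% interval -0.32 to 0.72) and rested on 27 to 126 counts per library. Without FAP replicate 3, its highest library, the SENP7 value was -0.06 (adjusted p = 0.955, edgeR).

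SUMO2 had the highest CPM of the members in each library, and SUMO3 and SENP5 overlapped in controls. SUMO2, the precursor of the main chain-forming SUMO, measured 380, 359 and 270 CPM in FAP libraries and 299, 282 and 315 CPM in controls. FAP replicates 1 and 2 were above all controls and FAP replicate 3 was below them, with a log2 fold change of 0.17 (SE 0.12, 95% interval -0.07 to 0.41, adjusted p = 0.657). Without FAP replicate 3 the SUMO2 value was 0.31 (adjusted p = 0.086, edgeR). SUMO3, whose mature protein is nearly identical to that of SUMO2, measured 141, 137 and 131 CPM in FAP libraries and 124, 145 and 128 CPM in controls (log2 fold change 0.04, SE 0.10, 95% interval -0.17 to 0.24). SUMO2 made up 73%, 72.4% and 67.3% of the summed SUMO2 and SUMO3 counts in FAP libraries and 70.6%, 66% and 71.1% in controls, so the balance of the 2 transcripts overlapped between groups.

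The share of each protease in the summed counts of the 6 SENP genes shows the same values free of scaling between libraries. SENP5 took 32.9%, 34.3% and 29.6% of SENP counts in FAP libraries, against 36.3%, 43.8% and 44% in controls. The groups did not overlap, but the exact (Clopper-Pearson) 95% intervals of the nearest libraries did, at 32.8% to 35.7% in FAP replicate 2 and 34.1% to 38.6% in control replicate 1; these intervals cover counting error only. SENP6 took 30.6%, 29.3% and 30% in FAP libraries and 29.9%, 20.9% and 25.1% in controls. The SENP5 share was above that of SENP6 beyond these intervals in FAP replicate 2 and in each control, and the intervals of the 2 genes overlapped in FAP replicates 1 and 3. The SENP5 share reuses the counts that chose the gene, and a fall in 1 share raises the others. None of these shares is therefore a separate result.

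**Figure D2:**
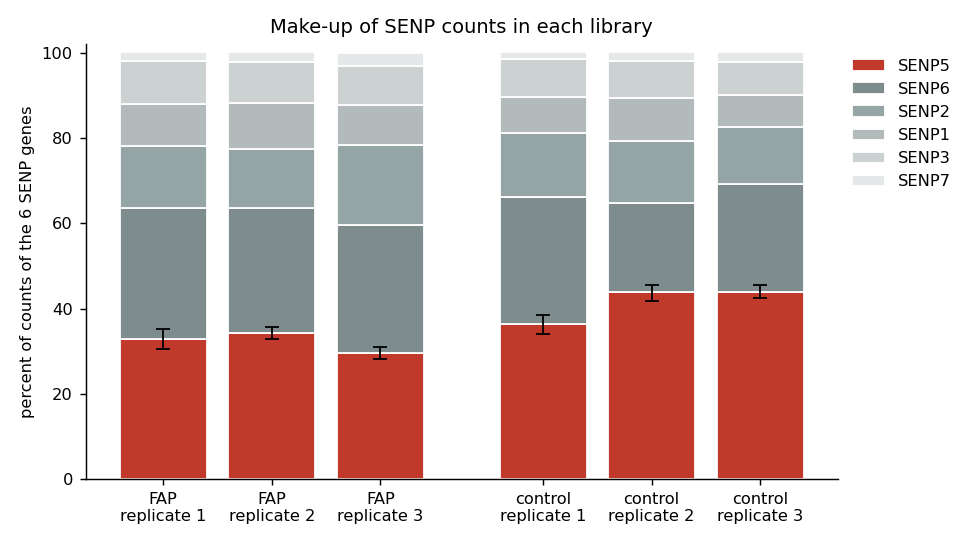
Percent of the counts of the 6 SENP genes that each gene took in each library, FAP libraries on the left and control libraries on the right; the black bars are exact 95% intervals of the SENP5 share. SENP5, at the base of each column, runs from 29.6% to 34.3% in FAP libraries and from 36.3% to 44% in controls.

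Levels between genes were compared per kilobase of the longest GENCODE transcript, which assumes that reads cover transcripts evenly. That was not tested for these DRUG-seq libraries, and counts from libraries primed only at poly(A) tails would not scale with length. The order per kilobase is therefore only a description, and levels without length are given below. On this scale the mean levels in controls ran in the order SUMO2 (93.6 CPM per kb), SUMO3 (69.0), SENP5 (21.0), SENP6 (12.5), SENP3 (10.4), SENP2 (7.97), SENP1 (5.94) and SENP7 (1.24). Among these neighbours only SENP6 and SENP3 had overlapping control libraries. In FAP libraries the order was unchanged, but SENP5 (14.4 ± 0.842 CPM per kb, SD, n = 3) stood just above SENP6 (13.0 ± 0.551), the lowest SENP5 library being at 13.9 and the highest SENP6 library at 13.7. In controls the corresponding levels were 21.0 ± 2.02 for SENP5 and 12.5 ± 2.43 for SENP6. Per length SENP5 thus had the highest mean of the 6 proteases in both groups. Its mean was also the highest of the 6 in CPM without length. In FAP replicate 3, however, SENP6 (88.8 CPM) was above SENP5 (87.8 CPM). Parts of the order above depended on the division by length. In control means without it, SUMO3 and SENP5 were level (132.6 and 132.3 CPM). SENP2 (45.6 CPM) was above SENP1 (27.8) and SENP3 (27.2).

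Several rows may share reads with other genes, since no source used here gives the strand setting or the treatment of overlapping genes. Of the 50-base stretches of the longest SENP3 transcript, 57.9% also occur in transcripts of other genes, and 1462 of 2541 occur in SENP3-EIF4A1, an annotated readthrough of SENP3 into its neighbour. That readthrough row held 2 counts in the 6 libraries together, so the SENP3 level is uncertain by however those reads were assigned. SENP1 shared 6% of its stretches, all on the opposite strand, with the overlapping glycolysis gene PFKM (log2 fold change -0.14, adjusted p = 0.724). SUMO2 shared 8.56%, largely with processed copies such as SUMO2P1. In GENCODE, though not in the RefSeq coordinates, SUMO2 also overlaps its neighbour JPT1 by 2696 bases on the same strand, without shared stretches. JPT1 averaged 352 CPM in FAP libraries and 374 CPM in controls (log2 fold change -0.09, adjusted p = 0.820, edgeR). SENP5 shared 1.17% and SENP2 1.52%, and SENP6, SENP7 and SUMO3 shared none. Within the last 500 bases the share was 2.09% for SENP3 and 1.55% for SUMO2, and no other member shared any.

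Further genes were described through 8 lists of 57 genes, of which 56 were tested. The lists covered the SUMO pathway, other processes in which these proteases act and the related NEDD8 pathway, so the totals below are not those of the SUMO pathway alone. A single gene was called by edgeR, TEX10, which was lower, and DESeq2 and limma-voom also called TEX10 alone; 1 of 56 stands beside 0.224% of all genes. At an unadjusted p under 0.05 there were 7 of the 56, against 9.91% of all genes. The median log2 fold change over the 56 was 0.05, against 0.00 over all genes tested, with 34 positive and 22 negative values. Of the 56 genes, 4 had all FAP libraries below all controls (SAE1, DESI1, TEX10 and UBE2F) and 4 had them above, DESI2, ATRX and MORC3 among them, and over all genes tested 16% were separated in either direction.

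TEX10 belongs to the list of nucleolar partners of SENP3 and SENP5, and its protein works with PELP1, WDR18 and SENP3 in a complex of late ribosome assembly. It measured 81.1, 90.2 and 92.1 CPM in FAP libraries and 123, 125 and 124 CPM in controls. The controls lay close together and every FAP library was lower (log2 fold change -0.49, SE 0.10, adjusted p = 0.0372, edgeR). The gene overlaps its neighbour INVS by 92 bases in the annotation (INVS at 6.32 CPM, log2 fold change 0.37, adjusted p = 0.632). The call was lost with library totals (adjusted p = 0.1004), without FAP replicate 1 or 2 (0.07976 and 0.1766) and without control replicate 1, 2 or 3 (0.1892, 0.3082 and 0.2318). TEX10 was known to be called when the list was drawn up, so its place in the list supports nothing. The 7 other genes of this list were not called. PELP1 was at -0.21 on the log2 scale (adjusted p = 0.535), LAS1L at -0.05, WDR18 at -0.03 and NPM1, nucleophosmin, the abundant nucleolar chaperone and SENP3 substrate, at 0.10.

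None of the enzymes that attach SUMO was called by edgeR, DESeq2 or limma-voom. Of the activating enzyme subunits, SAE1 measured 173, 177 and 190 CPM in FAP libraries and 219, 210 and 194 CPM in controls, all FAP values being lower (log2 fold change -0.20, SE 0.10, adjusted p = 0.496). Its partner UBA2 had 0.15 (adjusted p = 0.658). Among 11 ligases, 8 had positive values, and RANBP2, the ligase of the nuclear pore, was at 0.15 (adjusted p = 0.694); RANBP2 is uncertain, as its reads can also match its RGPD copies, and its value was 0.01 without FAP replicate 3.

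The SUMO proteases outside the SENP family pointed in different directions; none was called, and DESI1 and DESI2 had an unadjusted p under 0.05. DESI1 measured 71.2, 75.6 and 71.0 CPM in FAP libraries and 98.6, 89.8 and 81.8 CPM in controls, with no overlap (log2 fold change -0.31, SE 0.10, adjusted p = 0.320). DESI2 measured 48.8, 49.97 and 61.4 CPM in FAP libraries and 43.7, 38.8 and 47.0 CPM in controls, also with no overlap (0.31, SE 0.12, adjusted p = 0.403). The DESI2 value was 0.19 without FAP replicate 3. USPL1, also of this list, had 0.28 with an SE of 0.27. In the list of SUMO readers and PML body genes, MORC3, an ATPase of these bodies, and SIMC1, a protein with SUMO-interacting motifs, had 0.36 and 0.24 (adjusted p = 0.434 and 0.643).

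Lists of further processes in which these proteases act and of the NEDD8 pathway held no gene called by any of the 3 tools. In these lists FIS1 alone had an unadjusted p under 0.05 by edgeR. Of 8 mitochondrial fission and fusion genes the smallest p-values belonged to FIS1, an outer membrane fission factor (log2 fold change -0.22, adjusted p = 0.494), and OPA1, a fusion GTPase (0.21, adjusted p = 0.584). DNM1L, the fission GTPase tied to SENP5, had 0.05 (SE 0.11, 95% interval -0.18 to 0.28). The OPA1 value was 0.07 without FAP replicate 3. Of 9 nuclear pore and Ran genes, KPNA2 and NUP133 had 0.11 and 0.12 (adjusted p = 0.759 and 0.775). In the pathway of NEDD8, another ubiquitin relative, UBA3 and COPS5 had 0.17 and 0.10 (adjusted p = 0.733 and 0.810). Leaving out FAP replicate 3 gave 0.33 for UBA3 and 0.20 for COPS5. SENP8, which carries the SENP name but acts on NEDD8, had 5, 2 and 9 counts in FAP libraries and 7, 13 and 11 in controls and was too low to test.

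**Figure D3:**
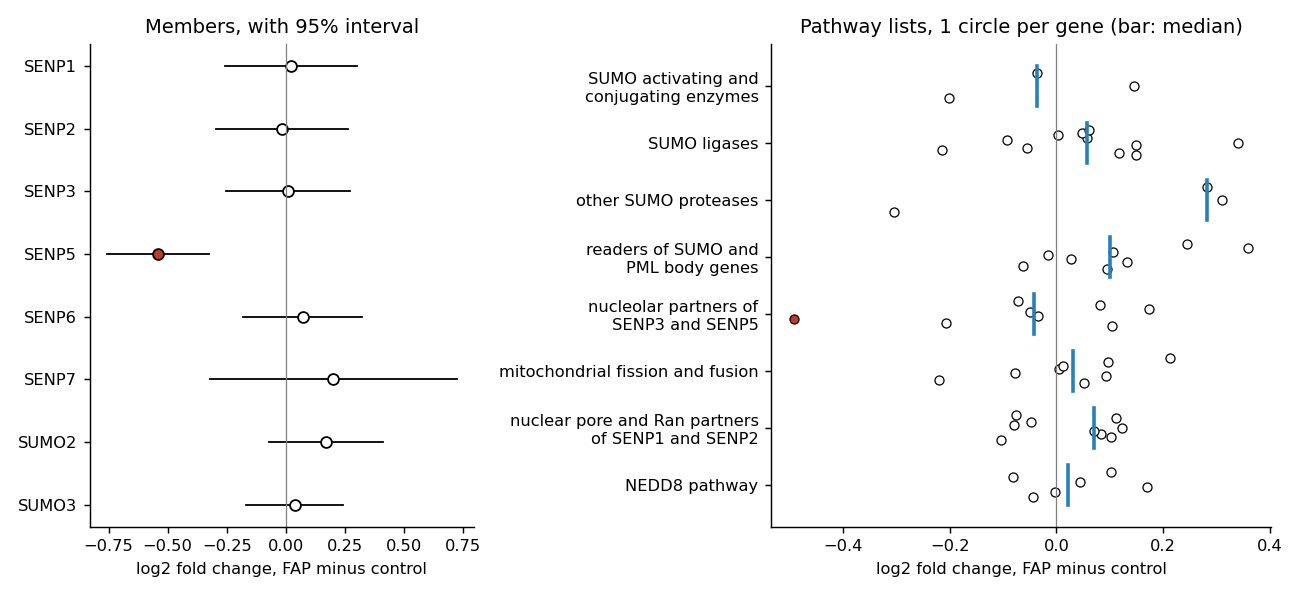
Log2 fold changes, FAP minus control, of the 8 members with 95% intervals (left) and of the 56 tested genes of the 8 lists (right, 1 circle per gene, blue bar the list median). Filled circles passed an adjusted p of 0.05 in the fit over all genes; they are SENP5 at -0.54 and TEX10 at -0.49.

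The genes next to SENP5 on chromosome 3 were not called in edgeR's fit. Before it lie CEP19, PIGX and PAK2, and after it NCBP2, NCBP2AS2 and MELTF, counting the 3 nearest tested genes on each side. NCBP2, a subunit of the nuclear cap-binding complex whose gene lies 0.7 kb past the end of SENP5, measured 83.5, 84.3 and 91.1 CPM in FAP libraries and 89.7, 88.1 and 94.8 CPM in controls (log2 fold change -0.07, SE 0.10, 95% interval -0.28 to 0.13). PAK2, a p21-activated kinase whose gene ends 35.3 kb before SENP5, measured 185, 196 and 191 CPM in FAP libraries and 179, 161 and 180 CPM in controls (0.14, SE 0.10, adjusted p = 0.662). The other 4 neighbours had log2 fold changes between -0.15 and -0.07.

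Likeness to SENP5 was compared over 8638 tested genes averaging 10 CPM or more, leaving out rows with no symbol or with a LOC name. The genes most like SENP5 across the 6 libraries were found by the root mean square difference of log2 CPM, each gene centred on its own mean. They were AGAP2-AS1, an antisense RNA gene that may share reads with its partner, at 0.048, FCF1, a ribosome assembly factor, at 0.058, ANGPTL2, a secreted angiopoietin-like protein, at 0.089, SRPX2, a secreted sushi-repeat protein, at 0.093, and PLAUR, the urokinase receptor, at 0.098. FCF1 measured 94.6, 98.9 and 83.6 CPM in FAP libraries and 119, 132 and 146 CPM in controls, close to the SENP5 levels in each library. All 5 had FAP libraries below all controls, which the measure of likeness selects for. Their log2 fold changes lay between -0.58 and -0.45, and FCF1 and PLAUR were called (adjusted p = 0.03932 and 0.02641, edgeR). Both calls were lost with library totals, without FAP replicate 2 and without any 1 control, with largest adjusted p-values of 0.3192 for FCF1 and 0.2318 for PLAUR. The members with at least 10 CPM differed from SENP5 by 0.301 (SUMO3) to 0.390 (SENP6) on this measure, and SENP3, at 0.303, ranked 3751.

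The SENP5 difference had the same sign in each of 14 other settings, between -0.62 and -0.49, and passed the threshold in 9 of them. The adjusted p was 0.08618 with library totals in place of TMM, 0.09865 without FAP replicate 2, and 0.06297, 0.3082 and 0.2516 without control replicates 1, 2 and 3. Without FAP replicate 3, the library that stood apart, the log2 fold change was -0.51 (adjusted p = 0.0024).

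**Figure D4:**
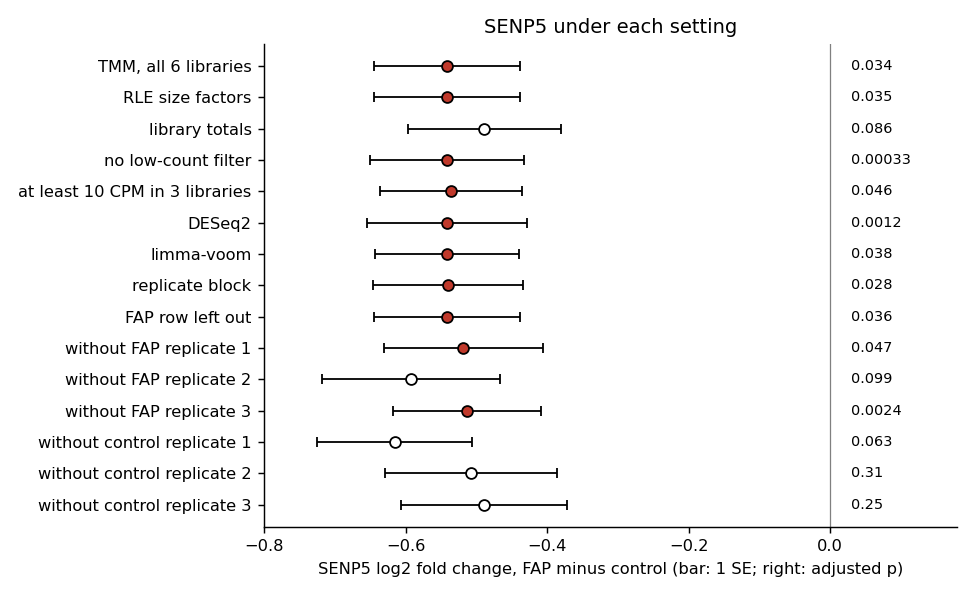
SENP5 log2 fold change, FAP minus control, under each setting, with bars of 1 SE and the adjusted p at the right; filled circles passed an adjusted p of 0.05. Every estimate lies between -0.62 and -0.49, and the 5 open circles are library totals and the fits without FAP replicate 2 or any 1 control.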

How the data were processed

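The 6 samples were measured by DRUG-seq. The authors deposited whole-number read counts per Entrez gene, not normalized. HISAT2, featureCounts and Subread and the GRCh38 build are named in the submitters' processing notes; no source used here gives their versions, the strand setting or whether molecular identifiers were used. Of 28395 gene IDs, 27745 matched a symbol in the RefSeq table of GRCh38.p14. Total counts ran from 5736056 to 13839743.

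The fit used edgeR 4.0.16 under R 4.3.3. Genes were kept by filterByExpr with a minimum count of 10 and a minimum total of 15, scaled by TMM and tested two-sided for FAP minus control by the quasi-likelihood F test, with Benjamini-Hochberg adjustment over 13373 genes and a threshold of 0.05. The SE is the log2 fold change over the square root of F, and 95% intervals use the test's degrees of freedom. The common biological coefficient of variation was 11.8%. Transcripts came from GENCODE v29 and promoters from RefSeq. Log2 CPM for likeness used a pseudocount of 0.5 CPM.

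The members, lists and tests were chosen with earlier results of these data known. Named genes are the members, FAP, each list's called genes or else its 2 smallest p-values, 3 neighbours on each side of SENP5, rows that share reads, and the 5 genes most like SENP5; PELP1, LAS1L, WDR18, NPM1, DNM1L, USPL1 and SENP8 were added with their values seen. A few list genes are not reported here individually but remain in the totals. Alternatives were DESeq2 1.42.0, limma-voom (limma 3.58.1), other size factors and filters, FAP left out, a block for replicate number, and fits that each left out 1 library. Figures used matplotlib 3.10.9.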

Additional observations from a re-analysis of the deposited data

How the results depend on the processing

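The SENP5 log2 fold change, -0.54 with TMM and all libraries, was -0.49 with library totals (adjusted p = 0.08618) and lay between -0.62 and -0.49 in the fits that left out 1 library, which called it only without FAP replicate 1 or FAP replicate 3. Genes called over the whole table numbered 30, against 19 with library totals, 152 with no low-count filter, 82 with DESeq2 and 3 to 248 with 1 library left out, the highest without FAP replicate 3. With library totals 0 members and 0 list genes were called by edgeR (1 and 5 at an unadjusted p under 0.05); with 1 library left out both counts were 0 or 1. TEX10 kept its sign in all settings, at -0.53 to -0.44, but lost its call with library totals (adjusted p = 0.100) and in every fit without 1 library except that without FAP replicate 3. Among the 36 other named genes the sign of an uncalled value changed 14 times, SENP2 with library totals (0.04) among them; the causes were not tested. Same-numbered libraries did not deviate together (r = -0.007, 0.029 and -0.001 for replicates 1, 2 and 3), so the numbers were not taken as pairs. A fit with the replicate block called 44 genes, with SENP5 at -0.54 (adjusted p = 0.028) and TEX10 called. Adding the readthrough row to SENP3 left its value at 0.01. The planned addition of SUMO2 and SUMO3 pseudogene rows was not run, as no row carried such a symbol. At 3 libraries a group and 27 to 126 counts, SENP7 changes within its interval of -0.32 to 0.72 could not be resolved.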
